A study of Mus musculus with 8 samples.

Results

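The 4 Hox gene clusters of the mouse were followed across HpaII sites in liver DNA. Their members are the sites that all 8 samples list within 1 fixed stretch of the mm9 build around each cluster. From the first to the last member these are chr6:52100706-52224745 for HoxA, chr11:96120638-96232607 for HoxB, chr15:102745662-102872857 for HoxC and chr2:74493365-74603493 for HoxD. Position alone chose the members, with no use of a measured value. They number 1301 of the 1310003 sites listed in all 8 samples, with 354 in HoxA, 288 in HoxB, 313 in HoxC and 346 in HoxD. All 8 livers came from C57BL/6J mice on a high-fat diet, and n was 4 mice for each diet. In the lingonberry group the high-fat diet also held lingonberries, and the HFD group received the high-fat diet alone. The labels state neither age nor sex of the mice.

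Hox genes encode homeodomain transcription factors that give cells their position along the body axis of the embryo. Within a cluster the genes stand in the order of the body regions they pattern, and their coding sequences are packed among many CpG-rich stretches. Where Hox genes are silent, the clusters are commonly held by Polycomb complexes and histone H3 lysine methylation, and CpG-rich DNA under Polycomb is typically free of cytosine methylation. In the RefSeq annotation of GRCm38.p6 the clusters hold 39 Hox genes. HoxA lies on chromosome 6, with Hoxa13 at its upper end. With rising position, HoxB (chromosome 11) runs from Hoxb13 to Hoxb1, HoxC (chromosome 15) from Hoxc13 to Hoxc4 and HoxD (chromosome 2) from Hoxd13 to Hoxd1. No mm9 gene annotation was used here, so sites are given by mm9 position and tied to a gene only at the promoters that follow. Whether each mm9 stretch holds every gene of its cluster was not looked up.

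The assay reads the sequence CCGG, which is its own reverse complement and so is found on both strands alike. HpaII cuts CCGG only where its CpG is unmethylated, and a promoter can be placed among the listed sites by the spacing of its CCGG sequences. RefSeq promoters of 300 bases (250 before and 50 after the gene's start, build GRCm38.p6) were available for 22 Hox gene symbols. Of the 32851 promoters in that table, 52.8% hold a CCGG and 21.1% hold at least 3. A promoter was tied to listed sites where at least 3 of its CCGG fell on listed sites in 1 place only of its locus. Hoxd12, Hoxd10, Hoxd9 and Hoxa6 are shown because the m-scores given later sit on their CCGG. They are printed 5′ to 3′ on the gene's own strand with CCGG in capitals, and capitals mark every CCGG whether or not a site is listed for it.
Hoxd12: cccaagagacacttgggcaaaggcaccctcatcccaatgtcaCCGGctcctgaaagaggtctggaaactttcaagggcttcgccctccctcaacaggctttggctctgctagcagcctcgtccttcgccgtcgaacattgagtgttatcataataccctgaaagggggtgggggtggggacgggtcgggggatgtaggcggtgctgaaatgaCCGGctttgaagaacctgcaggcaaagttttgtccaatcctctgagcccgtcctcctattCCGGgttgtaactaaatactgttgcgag
Hoxd10: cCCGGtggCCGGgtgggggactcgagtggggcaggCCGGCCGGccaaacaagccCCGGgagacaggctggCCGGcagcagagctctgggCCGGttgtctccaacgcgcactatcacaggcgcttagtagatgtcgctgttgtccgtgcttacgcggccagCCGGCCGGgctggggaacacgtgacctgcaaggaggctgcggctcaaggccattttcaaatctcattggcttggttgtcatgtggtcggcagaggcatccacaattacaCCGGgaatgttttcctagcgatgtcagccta
Hoxd9: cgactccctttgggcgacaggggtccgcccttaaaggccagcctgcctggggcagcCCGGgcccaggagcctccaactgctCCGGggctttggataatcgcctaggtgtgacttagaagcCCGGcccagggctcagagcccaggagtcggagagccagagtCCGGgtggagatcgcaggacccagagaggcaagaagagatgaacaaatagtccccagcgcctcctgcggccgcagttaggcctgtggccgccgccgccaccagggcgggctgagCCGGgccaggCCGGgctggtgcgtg
Hoxa6: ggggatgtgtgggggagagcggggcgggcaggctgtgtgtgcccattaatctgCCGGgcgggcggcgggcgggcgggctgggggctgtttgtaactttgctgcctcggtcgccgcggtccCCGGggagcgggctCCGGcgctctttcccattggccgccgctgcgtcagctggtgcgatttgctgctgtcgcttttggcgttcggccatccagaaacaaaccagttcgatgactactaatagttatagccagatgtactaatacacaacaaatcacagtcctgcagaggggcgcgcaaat

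All 3 CCGG of Hoxd12 fell on listed sites, as did 7 of 10 in Hoxd10, 5 of 6 in Hoxd9 and all 3 in Hoxa6. The next best place in the locus matched 2 CCGG for Hoxd12, 4 for Hoxd10, 2 for Hoxd9 and 2 for Hoxa6. Distances among the Hoxd12, Hoxd10 and Hoxd9 promoters differed by 0 bp between the listed mm9 positions and GRCm38.p6. Hoxa13 was tied through 3 of 4 CCGG, but its distance to Hoxa6 differed by 5 bp between builds, so its place is less firm and its sequence is not shown.

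The measure is the authors' m-score. By its values it is the angle between the HpaII tags and the MspI tags of a site, with 0 where no HpaII tag was seen (methylated end) and 100 where no MspI tag was seen (unmethylated end). MspI cuts CCGG whether methylated or not, and 1 MspI reference of 29676292 tags served all samples after scaling to each sample's HpaII total, so an m-score sets a site against the others in its own library and is no percentage of methylated molecules. The lingonberry libraries held 16060380, 9961952, 6104751 and 10196666 HpaII tags and the HFD libraries 7018541, 6511377, 5858601 and 7411193. The protocol names PCR and no molecular identifiers, so depth covers counting error only. Levels were taken over sites with at least 10 MspI tags, a filter that is the same for every sample. It kept 1143 of the 1301 Hox sites (319 in HoxA, 254 in HoxB, 279 in HoxC, 291 in HoxD) and left out 158. The Hox sites kept had a median of 22 HpaII tags per site and liver, against 2 in the rest of the genome. Over all listed sites the median number of MspI tags was 29 in the loci and 18 elsewhere.

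All 4 clusters lay far toward the unmethylated end of the scale in every liver. Over the 8 livers the mean m-score was 71.7 ± 1.30 in HoxA, 70.8 ± 0.613 in HoxB, 70.3 ± 1.03 in HoxC and 74.1 ± 1.34 in HoxD, against 29.1 ± 0.873 over the 919062 other sites (SD, n = 8). Single sites were spread around these means with an SD of 13.7 over the 1143 Hox sites. Their 10th percentile was 53.7, their median 74.4 and their 90th percentile 86.5. In the rest of the genome the median was 17.1.

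HoxD had the highest mean of the 4 loci in 8 of 8 livers. Its values were 75.2, 73.8, 72.3 and 76.2 in the lingonberry livers and 74.0, 75.2, 72.6 and 73.7 in the HFD livers. HoxA had 72.5, 70.6, 71.6 and 74.3 in the lingonberry livers and 72.0, 71.4, 69.9 and 71.6 in the HFD livers. In both loci the diets overlapped, and lingonberry liver 4 was the highest of the 8. HoxB had 70.6, 70.7, 70.2 and 72.1 in the lingonberry livers and 71.2, 70.4, 70.5 and 70.6 in the HFD livers. HoxC had 71.4, 70.0, 70.2 and 72.2 in the lingonberry livers and 70.0, 69.4, 69.0 and 70.6 in the HFD livers. Here too the diets overlapped. Within a liver, HoxD exceeded HoxA by 2.38 ± 0.943, HoxB by 3.32 ± 1.06 and HoxC by 3.76 ± 1.02 m-score (SD over 8 livers), and each of these differences was above 0 in 8 of 8 livers. HoxA exceeded HoxC in 8 of 8 livers, by 1.39 ± 0.562. HoxA was above HoxB in 6 of 8 livers and HoxB above HoxC in 5 of 8, so these neighbours in the order did not separate beyond the spread between livers. The loci share livers and the MspI reference, and the order is given as a description. It depends on the sites used, since over sites with at least 50 MspI tags HoxA (70.9) stood above HoxD (70.7).

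**Figure D1:**
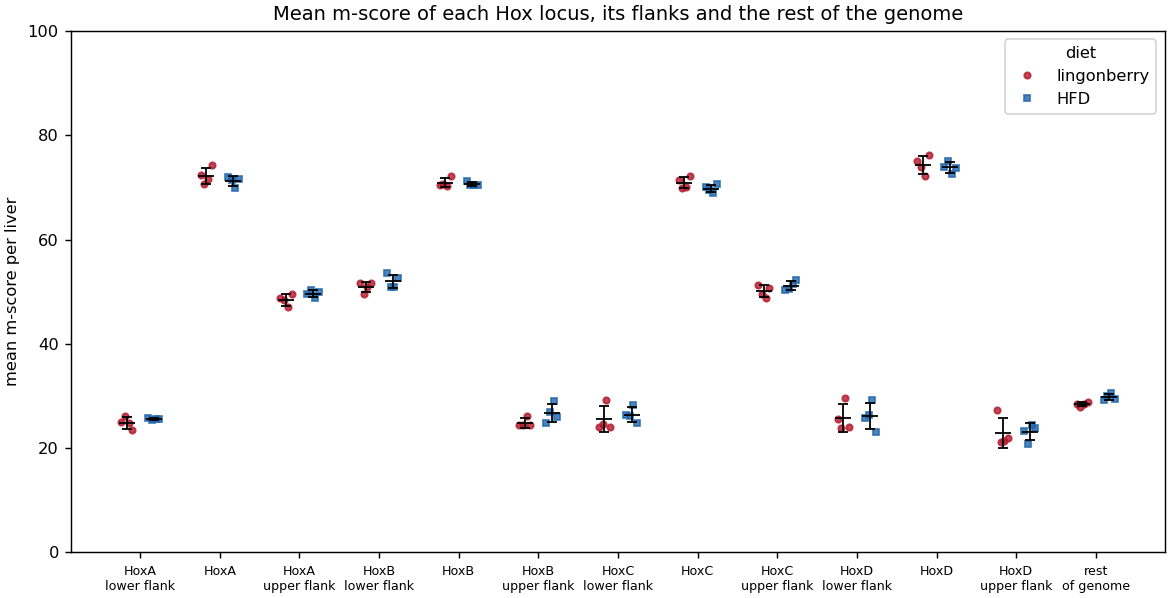
Mean m-score per liver (vertical axis, 0 to 100) for each Hox locus, the flank below and above it, and the rest of the genome. Points are livers by diet, bars are the mean and SD of 4 livers; the 4 loci lie between 69.0 and 76.2 and no flank exceeds 53.5.

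Methylated sites were nearly absent from the clusters. Only 10 of the 1143 Hox sites (0.875%) had a mean m-score below 25, against 58.8% of the other sites of the genome. In single livers the share of Hox sites below 25 was 2.10%, 2.19%, 2.62% and 1.66% in the lingonberry group and 2.19%, 2.36%, 1.75% and 1.93% in the HFD group. At the other end, 56.0% of HoxD sites had a mean of 75 or above, as did 49.2% in HoxA, 46.1% in HoxB and 41.9% in HoxC, against 11.7% elsewhere. Values of 0, from sites with no HpaII tag in a liver, made up 0.35% of the Hox values and 32.0% of those elsewhere.

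The 10 low sites were scattered over the loci and most stood beside unmethylated ones. HoxA and HoxD held 3 each, HoxB and HoxC 2 each, and none had shared tags. The lowest was chr15:102821100 in HoxC, with a mean m-score of 5.29 and a range over the livers of 0 to 18.4. It had 50 MspI tags, and 11 HpaII tags were counted there in the 8 livers together. Neighbours were counted here only where they had at least 10 MspI tags. The 10 such sites within 1 kb of it averaged 73.5, with the lowest of them at 52.9. At chr2:74592503 in HoxD the mean was 10.7 and no liver exceeded 19.4, while its 1 neighbour within 1 kb had 77.8. At chr11:96220860 in HoxB the mean was 9.71, and no other site with at least 10 MspI tags lay within 1 kb. For 8 of these 10 sites there were such neighbours within 1 kb, and the means of those neighbours ran from 62.8 to 78.3.

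Fixed tiles over the rest of the genome, 8 to each 1000000 bases and so about as long as a Hox locus, gave the setting for these levels (at least 20 sites each). The median of 13649 tiles was 26.1 and the highest reached 67.7, below all 4 Hox loci. HoxB held 254 sites, and 5 tiles held as many or more; none held as many as HoxA, HoxC or HoxD. Among the 1913 tiles with at least 100 sites the median was 36.1 and the highest value was 63.7. The Hox windows were drawn around the clusters while the tiles lie on a blind grid, so the comparison is a description of rank. Over sites with at least 50 MspI tags, 4 of 711 tiles were as high as HoxA, 7 as high as HoxB, 7 as high as HoxC and 4 as high as HoxD.

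The mean m-score was lower in both flanks of each locus than in the locus itself. Flanks are set by position alone, and whether they hold Hox genes was not looked up. In flanks of 1 tile's length below the loci the mean over 8 livers was 25.2 for HoxA, 51.5 for HoxB, 25.9 for HoxC and 25.9 for HoxD. In the flanks above them it was 49.0 for HoxA, 25.7 for HoxB, 50.6 for HoxC and 23.0 for HoxD. Inside the loci, windows of 5 kb (at least 3 sites) had a mean of 60 or above in 23 of 25 cases in HoxA, 20 of 20 in HoxB, 24 of 24 in HoxC and 21 of 21 in HoxD, and none was below 25. In the flanks 1 of 10 and 5 of 11 windows reached 60 below and above HoxA, 9 of 16 and 1 of 13 for HoxB, 1 of 8 and 5 of 13 for HoxC, and 2 of 4 and 1 of 5 for HoxD. The flanks were thus not low throughout: below HoxD the window next to the border, with 3 sites, was at 65.8, and the highest of the 4 windows was at 80.6.

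**Figure D2:**
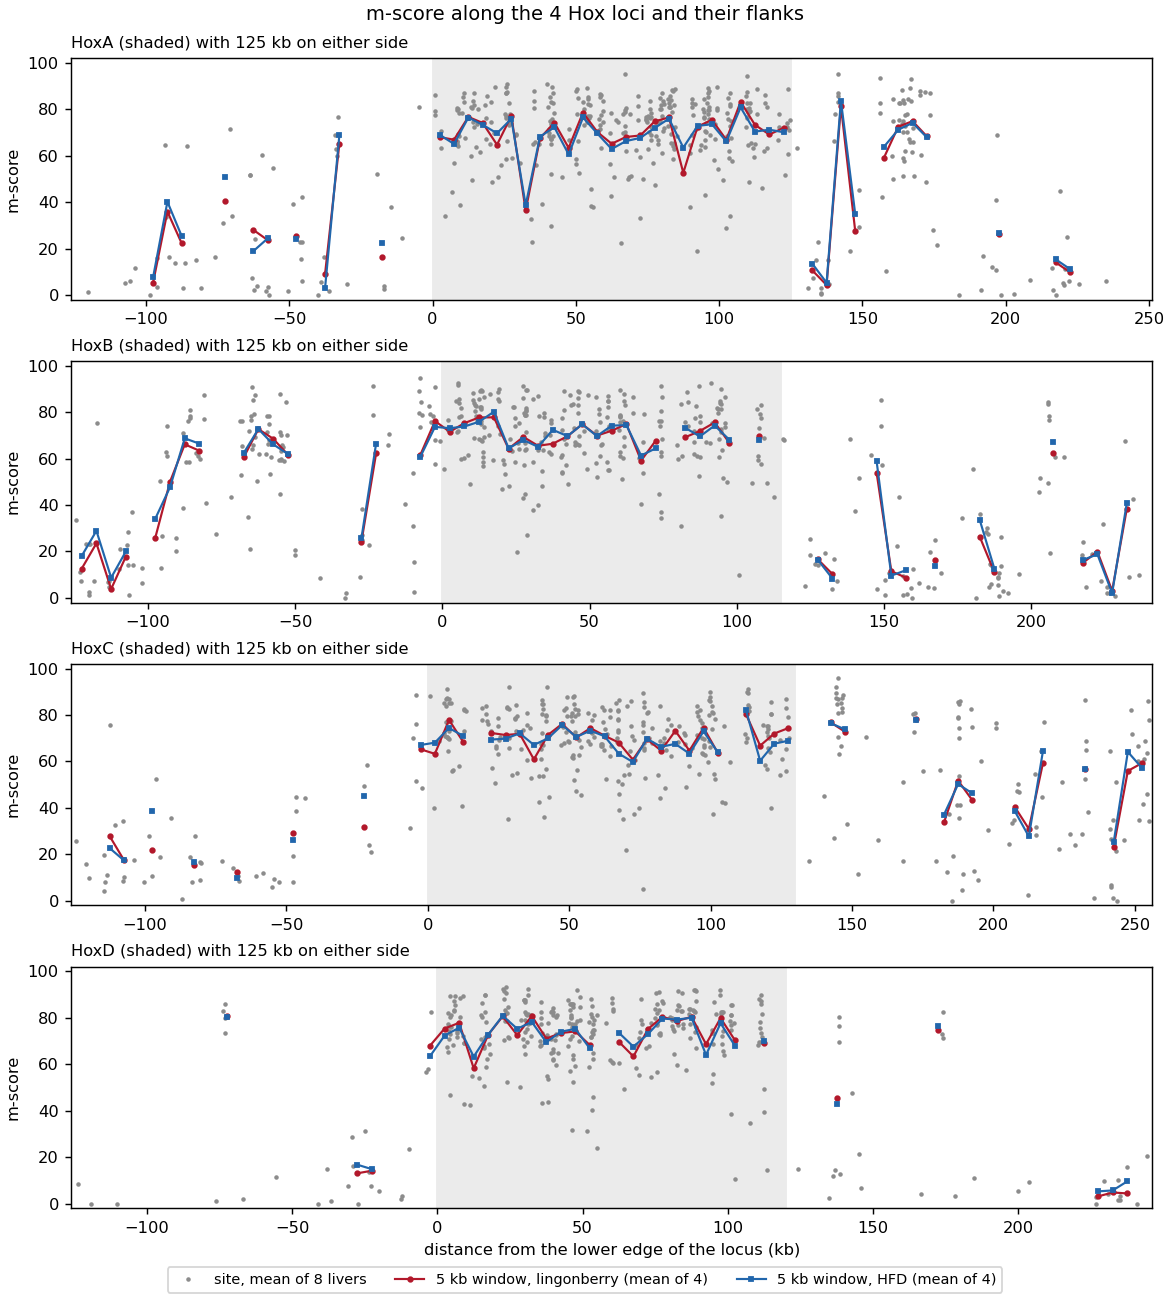
m-score along the 4 loci (shaded) and the flanks on either side, against distance from the lower edge in kb. Grey points are sites (mean of 8 livers), and lines join adjacent 5 kb windows (mean of 4 livers) by diet; inside the loci the window means of 8 livers run from 60.2 to 82.0, except 37.6 and 58.0 in HoxA.

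Along each cluster the level stayed within narrow bounds. When a locus was cut into 3 equal parts, the part means over 8 livers were 70.8, 72.2 and 72.1 in HoxA with rising position, 71.6, 70.8 and 69.2 in HoxB, 71.6, 68.8 and 71.0 in HoxC, and 74.7, 72.9 and 74.8 in HoxD. Each locus thus varied by under 3 m-score between parts. Where the genes of each cluster lie within these parts was not looked up. The highest 5 kb window of HoxA was chr6:52205001-52210000 at 82.0 (8 sites), that of HoxB chr11:96135001-96140000 at 78.9 (9 sites), that of HoxC chr15:102855001-102860000 at 81.2 (10 sites) and that of HoxD chr2:74510001-74515000 at 80.8 (15 sites). The lowest windows were at 60.2 in HoxB (chr11:96185001-96190000, 5 sites), 60.2 in HoxC (chr15:102815001-102820000, 12 sites) and 60.8 in HoxD (chr2:74500001-74505000, 5 sites). HoxA had the only window under 50, chr6:52130001-52135000 with 3 sites. It had 27.7, 30.5, 34.5 and 53.1 in the lingonberry livers and 25.9, 55.2, 29.7 and 44.0 in the HFD livers. The livers of both diets spread widely there, and the mean of all 8 was 37.6.

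Unbroken series of sites with no mean below 25 were longer in the clusters than almost anywhere else. Of 17902 such stretches in the genome, ranked by the number of sites with at least 10 MspI tags, the longest was in HoxD with 173 sites over 57.6 kb (chr2:74486229-74543839). The next were in HoxB with 172 sites over 70.7 kb (chr11:96145810-96216541) and in HoxC with 167 sites over 75.7 kb (chr15:102738792-102814515). The longest stretch outside the Hox loci held 107 sites over 29.3 kb (chr19:44808434-44837761). A further stretch in HoxD and one in HoxC held 103 sites each, at rank 5. HoxA was broken by its 3 low sites into stretches of up to 86 sites, at rank 13. With a limit of 20 in place of 25, HoxD had 278 sites in 1 stretch (rank 1), HoxA 237 (rank 2), HoxC 188 (rank 3) and HoxB 172 (rank 4). A stretch was credited to a locus that it overlapped, so sites of the flanks can be counted in it. With the limit of 20 those of HoxD, HoxA and HoxC began below their loci, at chr2:74480282, chr6:52085390 and chr15:102698244. With 25 the longest of HoxD and HoxC also began below their loci. Taken by kb instead of sites, the longest stretches with no mean below 25 ranked 24 for HoxD, 13 for HoxB, 9 for HoxC and 97 for HoxA. From the 4 lingonberry livers alone, HoxB led the genome with 213 sites, and from the 4 HFD livers alone HoxD led with 154. Borders set by single sites near the limit therefore moved with the livers used.

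Local density of HpaII sites goes with the m-score across the genome, so it was set beside these levels. Of the 1143 Hox sites 579 (50.7%) had 5 or more listed sites within 500 bp, against 13.9% elsewhere. At these crowded sites the clusters had 74.9 in HoxA, 73.8 in HoxB, 73.5 in HoxC and 76.2 in HoxD, against 69.1 in the rest of the genome. The gap was wider where sites were sparse. With 1 to 4 neighbours the means were 70.4, 70.0, 69.1 and 71.4 in HoxA, HoxB, HoxC and HoxD, against 25.5 elsewhere. With no neighbour they were 55.8 (21 sites), 50.0 (13 sites), 62.5 (22 sites) and 51.9 (6 sites) in the same order, against 18.9 elsewhere. Isolated Hox sites thus had a lower m-score than crowded ones in each locus, and still more than 30 m-score above isolated sites of the rest of the genome. The Spearman correlation between mean m-score and MspI tags over the 1143 Hox sites, which share loci and libraries, was -0.071.

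**Figure D3:**
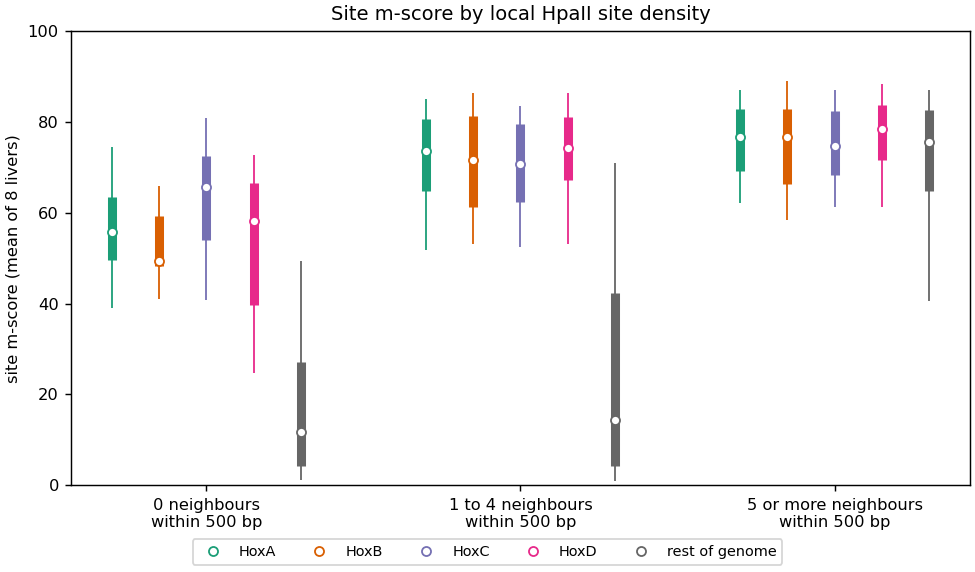
Site m-score (mean of 8 livers, vertical axis) by number of listed sites within 500 bp, for the 4 loci and the rest of the genome. Points are medians, thick bars the middle 50% of sites and thin lines the 10th to 90th percentile; with 0 or 1 to 4 neighbours the Hox sites lie far above the rest of the genome, and with 5 or more the medians lie close together.

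CpG-rich stretches were taken as runs, in which 5 or more sites follow each other with no gap over 500 bp. The loci held 82 of them, with 19 in HoxA, 20 in HoxB, 18 in HoxC and 25 in HoxD. Their means ran from 60.6 to 82.8, none was below 50, and 28 (34.1%) reached 75. Of the other 20938 runs 33.4% were below 50 and 23.8% reached 75. The highest run was chr2:74495481-74496058 in HoxD (6 sites) at 82.8 and the lowest chr2:74527624-74528257, also in HoxD (5 sites), at 60.6. In HoxA runs reached from 61.8 (chr6:52134410-52135990, 8 sites) to 79.8 (chr6:52125380-52126076, 10 sites). In HoxB they reached from 66.1 (chr11:96193518-96194480, 12 sites) to 82.5 (chr11:96124778-96125693, 8 sites). In HoxC they reached from 64.4 (chr15:102815140-102817123, 8 sites) to 81.2 (chr15:102857155-102858585, 10 sites). The 5 runs of 20 or more sites lay between 73.3 and 79.7, and the 1052 such runs elsewhere had a median of 74.2. Sites outside runs made the larger contrast, with 66.3 ± 1.29 in the clusters and 21.0 ± 1.28 in the rest of the genome (SD over 8 livers), against 73.8 ± 1.28 and 60.4 ± 0.977 inside runs.

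Sites of the tied promoters also lay toward the unmethylated end of the scale, some above and some below the mean of their locus. Hoxd12, Hoxd10 and Hoxd9 belong to the posterior genes of HoxD, which are known for patterning the limbs and the hind part of the body. The 3 sites of Hoxd12 had mean m-scores over the 8 livers of 70.6 at position -208, 91.4 at position -38 and 88.3 at position 22, counted in bases from the gene's start. Averaged over its 3 sites the promoter had 85.1, 78.3, 82.5 and 85.0 in the lingonberry livers and 84.9, 87.7, 81.5 and 82.5 in the HFD livers. The diets overlapped, and the site farthest from the start was the lowest on average.

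Hoxd10 averaged 78.8, 72.8, 64.7 and 76.8 in the lingonberry livers and 75.2, 69.6, 59.1 and 63.3 in the HFD livers over its 6 sites with at least 10 MspI tags. The diets overlapped. Its 7 sites ran from 61.7 (position -242) to 83.0 (position -90, with 5 MspI tags), and the sites at -90 and -86 are the 2 CCGG of a doubled CCGGCCGG seen in its sequence. The spread between livers was wide at some sites. At -86, with 10 MspI tags, the m-score was 69.4 ± 13.9 with lingonberries and 55.5 ± 24.0 with HFD (SD, n = 4 each), and at -242, with 20 MspI tags, it was 61.3 ± 22.1 with lingonberries and 62.2 ± 21.9 with HFD. The spread was narrower at -90, at 83.3 ± 7.10 with lingonberries and 82.7 ± 11.4 with HFD, although that site had only 5 MspI tags. Apart from -90, the sites with 22 MspI tags or fewer had wider SDs in each diet than those with 27 or more. The part of depth in this was not tested. Hoxd9 averaged 73.7, 68.8, 69.0 and 81.4 in the lingonberry livers and 76.8, 78.4, 77.3 and 78.7 in the HFD livers over 5 sites. The lingonberry livers spread more widely than the HFD livers and lay on both sides of them. Its lowest site, at position -194 with 13 MspI tags, had 47.0 ± 23.0 with lingonberries and 66.9 ± 5.23 with HFD.

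Hoxa6, a gene of the middle of HoxA that takes part in patterning the trunk skeleton, had 2 of 3 sites with at least 10 MspI tags. These 2 averaged 64.4, 82.3, 64.2 and 73.7 in the lingonberry livers and 74.2, 77.2, 78.7 and 84.0 in the HFD livers, with overlap. The sites at positions -197 and -116 (6 MspI tags) had mean m-scores of 86.3 and 89.1, and the one at -130 had 63.3. Of the 3 sites placed at Hoxa13, which patterns the distal limb and the urogenital tract, 2 had at least 10 MspI tags. They averaged 78.5, 85.8, 81.01 and 83.6 in the lingonberry livers and 86.2, 76.1, 71.7 and 84.97 in the HFD livers, again with overlap. At all 5 promoters the site means over 8 livers lay between 57.0 and 91.4.

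**Figure D4:**
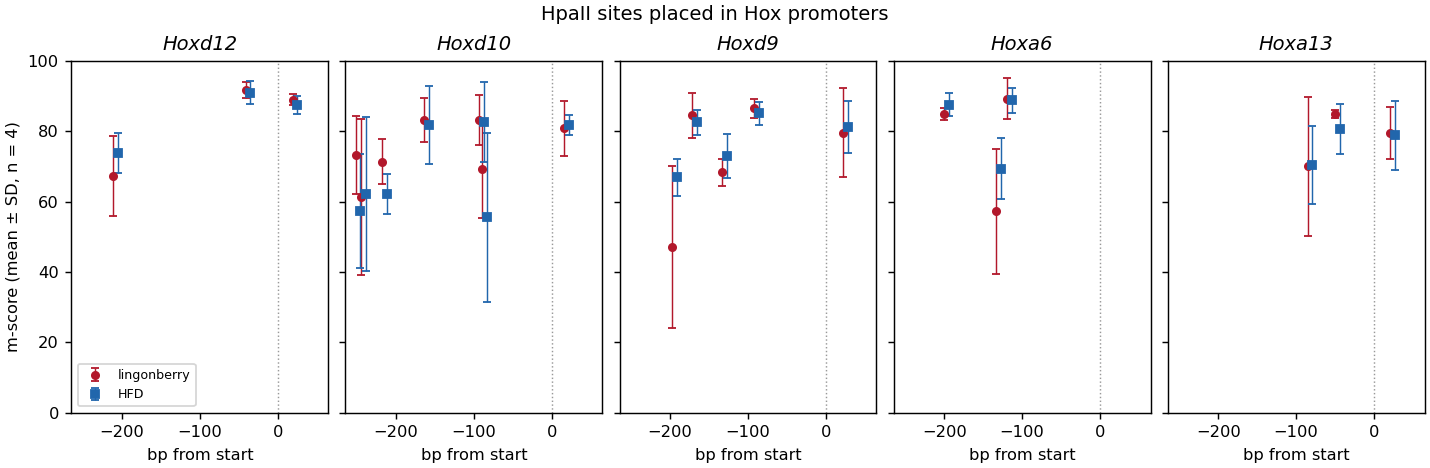
m-score (vertical axis, mean and SD of 4 livers) of the listed sites placed in 5 Hox promoters, against distance in bases from the gene's start (dotted line). Lingonberry and HFD points at one site are offset sideways for reading; every mean lies above 45, and the widest bars stand at single sites of Hoxd10, Hoxd9, Hoxa6 and Hoxa13.

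The diets were compared to ask whether the lingonberry supplement went with another methylation level at the Hox loci. No Hox locus passed. The 4 loci were tested with limma beside the tiles, with Benjamini-Hochberg adjustment over all 13653 features and a threshold of 0.05, and 0 of 4 were called, where 0.227% of all features were called. At an unadjusted p below 0.05, 0 of 4 were higher and 0 lower, where 0.198% of all features were higher and 21.2% lower. In 0 of 4 did all lingonberry livers lie above all HFD livers, which 0.161% of features showed. HoxA had 72.2 ± 1.57 with lingonberries and 71.2 ± 0.908 with HFD (SD, n = 4 each), a difference of 1.00 (SE 1.11, 95% interval -1.36 to 3.36, limma adjusted p = 0.588). HoxB had 70.9 ± 0.835 with lingonberries and 70.7 ± 0.370 with HFD, a difference of 0.254 (SE 0.986, 95% interval -1.84 to 2.35, limma adjusted p = 0.886). HoxC had 70.9 ± 1.06 with lingonberries and 69.8 ± 0.685 with HFD, a difference of 1.16 (SE 1.02, 95% interval -0.995 to 3.31, limma adjusted p = 0.497). HoxD had 74.4 ± 1.69 with lingonberries and 73.8 ± 1.07 with HFD, a difference of 0.511 (SE 1.18, 95% interval -1.98 to 3.00, limma adjusted p = 0.802). The intervals reach no further than -1.98 and 3.36 m-score in any of the 4 loci.

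The 4 positive signs have to be read beside a shift among the tiles. The median difference over all tiles and loci was -1.43, and the mean was higher with lingonberries in 13.4% of them. Other kinds of feature did not share this shift alike, with medians of 1.02 over all runs, -1.05 over all 5 kb windows and 0 over all single sites. With a minimum of 50 MspI tags the median over 715 tiles and loci was 1.18, and 17.1% were lower. Over all Hox sites the mean m-score was 72.2 ± 1.24 with lingonberries and 71.4 ± 0.610 with HFD, while in the rest of the genome it was 28.4 ± 0.398 with lingonberries and 29.8 ± 0.614 with HFD (SD, n = 4 each). The difference in the rest of the genome differed between classes of local density, at -2.80 for no neighbour, -1.22 for 1 to 4 and 1.95 for 5 or more. Over the Hox sites it was -3.11, 0.163 and 1.67 in the same classes. Site density therefore moves with the sign of the diet difference. With each m-score taken relative to the mean of sites of its class outside the loci, the differences were 0.706 in HoxA, 0.0577 in HoxB, 1.26 in HoxC and -0.263 in HoxD, so that the sign of HoxD turned, and none was called.

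HpaII tags per 1000000, which do not involve the MspI reference, were also compared. They were higher on average with lingonberries in 4 of 4 loci (39.6% of all tiles and loci), and 0 of 4 were called (0.0146%). At an unadjusted p below 0.05, 3 of 4 loci (HoxA, HoxC and HoxD) were higher with lingonberries and 0 were lower, where 6.86% of all tiles and loci were higher and 16.3% lower. HoxC had 946, 926, 917 and 940.5 in the lingonberry livers and 864, 863, 843 and 874 in the HFD livers. All 4 lingonberry livers lay above all 4 HFD livers in HoxC, as they also did in HoxB, where they had 860, 900.2, 869 and 876 against 846, 823, 781 and 852 in the HFD livers. Such a separation was found in 3.49% of tiles and loci. On the log2 scale with a pseudocount of 0.5 the difference in HoxC was 0.12 (SE 0.04, limma adjusted p = 0.120) and in HoxB 0.09 (SE 0.04, limma adjusted p = 0.216). In HoxA it was 0.10 (SE 0.04, limma adjusted p = 0.188) and in HoxD 0.10 (SE 0.05, limma adjusted p = 0.199), and the diets overlapped in both. Of the 4 lingonberry libraries 3 hold more tags than any HFD library, and the part of depth in this was not tested. Most tiles are sparser in sites than the loci, with a median of 52 sites. Over runs, described above, the median log2 difference in tags was 0.0923 for all 21020 and 0.116 for the 82 in the loci. At an unadjusted p below 0.05, 2396 of all runs were higher and 335 lower, and 14 Hox runs were higher and 0 lower. The part of site density in the tag differences was not tested.

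**Figure D5:**
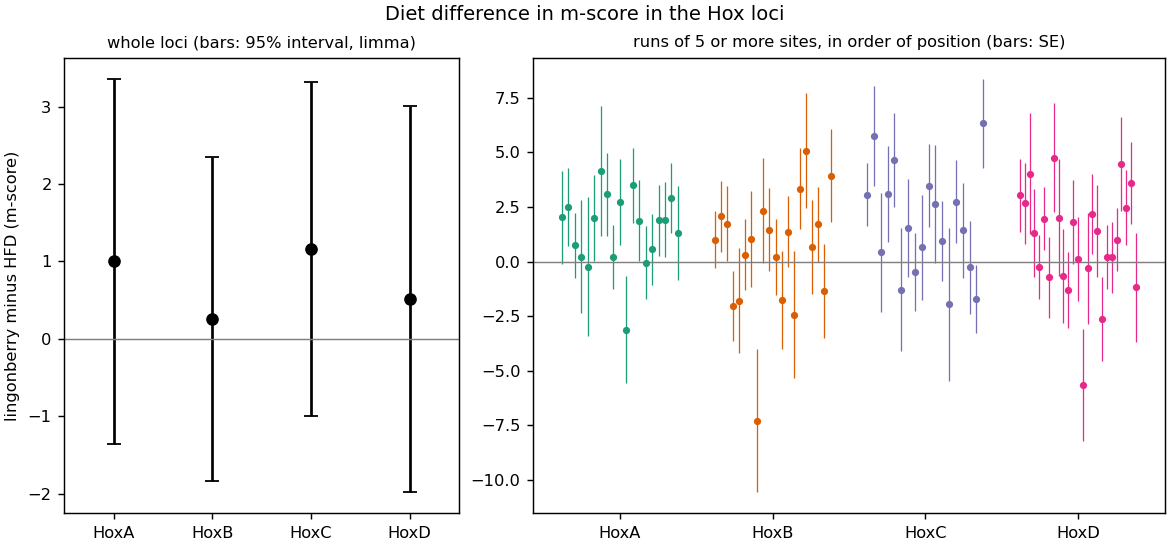
Difference in mean m-score, lingonberry minus HFD. On the left are the 4 whole loci with 95% intervals from limma, all of which include 0; on the right are the 82 runs in order of position with bars of 1 SE, which lie between -7.28 and 6.34.

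No run, window or site of the loci was called either. Among the 82 Hox runs 0 were called, where 0% of 21020 runs were called, and 2 were higher and 2 lower at an unadjusted p below 0.05 (6.36% and 1.86% of all runs). Among the 90 Hox windows 0 were called, where 0% of 120490 windows were called, and 3 were higher and 1 lower at an unadjusted p below 0.05 (1.45% and 5.3% of all windows). Of the 1301 Hox sites 0 were called, where 0.0134% of 1310003 sites were called. At an unadjusted p below 0.05, 50 Hox sites (3.84%) were higher and 31 (2.38%) lower, against 1.63% and 2.54% of all sites. The mean was higher with lingonberries in 60 of 82 runs (73.2%, against 65.9% of all runs), in 55 of 90 windows (61.1%, against 38.3%) and in 672 of 1143 sites with at least 10 MspI tags (58.8%, against 41.7%). With each m-score taken relative to its density class, 45.1% of Hox runs were lower with lingonberries (44.7% of all runs), as were 42.2% of Hox windows (47.6%). Of the 1301 Hox sites 47.6% were then lower, against 41.9% of all sites. At an unadjusted p below 0.05 in that setting, 36 Hox sites were higher and 24 lower, where 139330 and 30749 of all 1310003 sites were.

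The run with the largest positive difference was chr15:102864322-102866387 in HoxC, with 14 sites. It had 73.2, 71.0, 75.1 and 70.3 in the lingonberry livers and 65.8, 62.0, 67.3 and 69.2 in the HFD livers. All lingonberry livers lay above all HFD livers, by 6.34 on average (SE 2.03, limma adjusted p = 0.602). It was 1 of 4 Hox runs with such a separation, which 3.89% of all runs showed, and 0 Hox runs had all lingonberry livers below all HFD livers, which 0.961% showed. Among the Hox windows 2 had all lingonberry livers above (0.967% of all windows) and 0 had them below (2.81%). The largest negative difference was at chr11:96156124-96156878 in HoxB, with 5 sites, which had 66.0, 57.3, 62.9 and 76.5 in the lingonberry livers and 70.0, 73.6, 72.4 and 75.9 in the HFD livers. Lingonberry liver 4 was the highest of the 8 there, and the difference was -7.28 (SE 3.28, limma adjusted p = 0.606). The 5 runs of 20 or more sites differed by -1.30 to 1.98.

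Single sites varied more between livers than the loci did. Among sites with a mean of 50 or above, the median SD over the 8 livers was 6.62 at 1058 Hox sites (median of 26.9 HpaII tags) and 7.47 at 239164 other sites (21.5 HpaII tags). Of the Hox sites named by the rule, the one with the smallest adjusted p was chr11:96138747 in HoxB. It had 65.6, 74.0, 66.6 and 64.4 in the lingonberry livers and 83.1, 79.2, 78.0 and 80.2 in the HFD livers, without overlap, a difference of -12.5 (SE 2.42, limma adjusted p = 0.813). The largest difference among these sites was at chr15:102865255, inside the HoxC run just described. It had 87.3, 82.8, 74.0 and 79.9 in the lingonberry livers and 67.5, 39.8, 59.1 and 35.9 in the HFD livers, without overlap, a difference of 30.4 (SE 7.58, limma adjusted p = 0.873). In all, 24 of 1143 Hox sites had every lingonberry liver above every HFD liver, against 0.817% of all such sites, and 13 had every lingonberry liver below, against 1.57%.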

How the data were processed

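HELP-tagging libraries of liver DNA from 8 C57BL/6J mice were analysed, 4 for each diet; per the labels' protocols, DNA was cut with HpaII and tags were made with EcoP15I and PCR. Each deposited file lists, per the file headers, an m-score (a score from 0 to 100) and conf, which by its values is a signal equal to the length of the vector of HpaII and scaled MspI tags. The submitters' processing notes name mm9 and CASAVA; not given in the sources used here are the aligner, the filters on tags and how the MspI reference was made.

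Taking the m-score as an angle, its sine gave HpaII tags and its cosine MspI tags; 96.6% to 97.1% of values above 0 were whole within 0.02 per sample. Shared (fractional) tags were found at 150211 sites (11.5%), 37 of them in the Hox loci. Sites with at least 10 MspI tags entered levels, runs, windows (5 kb, at least 3 sites), and tiles (8 to each 1000000 bases, at least 20 sites); single sites were tested without that minimum. As values are scores, limma 3.58.1 (R 4.3.3, empirical Bayes with a mean trend) was fitted over the whole table for each kind of feature. Benjamini-Hochberg adjustment was used with a threshold of 0.05. A trial on simulated tags covered runs alone, so it does not speak for loci, windows or single sites, and its outcome is not given here. Python 3.11.15, numpy 2.4.6, pandas 2.3.3 and scipy 1.17.1 did the rest. P-values rest on the spread among 8 mice.

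Named were, per locus, the runs and windows of highest and lowest mean, every run of at least 20 sites, and the site (mean of 10 or more HpaII tags), window and run of smallest p in each direction; the largest of these are printed. The loci, lists and tests were chosen with earlier results of these data known. Alternatives were other MspI minimums, leaving out shared tags, centring by site density, tags per 1000000, no mean trend, 1 angle from summed tags and leaving out each mouse; limits of 20 and 30 for stretches, and each diet alone, were added after seeing the data.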

Additional observations from a re-analysis of the deposited data

Results flagged for a closer look

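In groups of 4 livers, 134 sets of values were searched for 1 liver far from the other 3, and 6 were found; chance alone gives about 1 in 20 groups, or 6.7 here. Of these, 3 were lingonberry livers that stood above the rest of their group in a flank: 26.1 above HoxB (24.3 to 24.4 in the others), 29.3 below HoxC (24.1 to 24.5) and 27.2 above HoxD (21.2 to 21.8). The values at HoxB and HoxC came from lingonberry liver 3, which had the shallowest library of its group, and the value at HoxD from lingonberry liver 1, which had the deepest; the part of depth was not tested. In the HFD group 1 liver had a mean over all Hox sites of 70.5, below the 71.6 to 71.8 of the other 3. An HFD liver had 71.9 in the HoxC window chr15:102780001-102785000, where the others had 65.1 to 65.8. An HFD liver had 75.8 in the HoxD run chr2:74519362-74521361 (20 sites), where the others had 79.4 to 80.0.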

How the results depend on the processing

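No Hox locus, run, window or site was past the threshold under any alternative fitted. Leaving out 1 liver at a time gave diet differences of 0.311 to 1.54 in HoxA, -0.150 to 0.480 in HoxB, 0.732 to 1.48 in HoxC and -0.0965 to 1.21 in HoxD. The negative ends, which turn the direction, both came without lingonberry liver 4. Centring by site density turned HoxD to -0.263; the cause of these turns was not tested, and the differences they touch are smaller than their standard errors. Levels moved by at most 0.4 when 1 liver was left out, with ranges of 71.4 to 72.0 in HoxA, 70.6 to 70.9 in HoxB, 70.1 to 70.5 in HoxC and 73.8 to 74.4 in HoxD. They moved by more than the spread between livers with 1 angle from summed tags, which weights sites by their tags, to 77.3 in HoxA, 77.6 in HoxB, 76.3 in HoxC and 79.5 in HoxD. With a minimum of 50 MspI tags they moved to 68.9 in HoxB and 70.7 in HoxD, and HoxD was then no longer the highest. Among flanks, runs, windows, stretches and named sites 35 values moved and 488 did not. For the diet differences in this count, only a change of sign or of call was looked for. They belong to features picked for the smallest p, and none was called, so the count does not measure how stable their size was. No paired analysis was possible because the labels give the groups no shared replicate numbers. Depth limits single sites most, since 1 HpaII tag shifts the m-score of a site with few MspI tags by a large step.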
